A study of Macaca fascicularis with 44 samples.

Results

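Brain ECs of the cynomolgus monkey brainstem were compared with those of the cortex after 7 days in culture, the fraction named P0D7. The comparison took the 6 brainstem and the 8 cortex P0D7 libraries out of the 44 libraries of the study, and the 11751 of 28623 gene identifiers with at least 1 FPKM (fragments scaled to gene length and library size) in 3 or more of these 14 libraries. The study sequenced RNA of cortical microvessels as isolated (P0D0), of P0D7 cells from 5 brain structures, and of cortical cells re-plated after P0D7 (P1D7). Both groups came from male and female Macaca fascicularis that had been in earlier preclinical studies, followed by a washout. Sex and age are not given per library. Microvessels were freed with collagenase and dispase, seeded on collagen IV and fibronectin in an endothelial medium, and exposed at first to puromycin, which was later withdrawn. Brainstem and cortex were handled alike in these steps, although the removal of cortical white matter applies to cortex alone.

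Endothelial cells of brain capillaries form the blood–brain barrier. Tight junctions seal the gaps between them, vesicle traffic across them is low, and transporters and receptors carry nutrients in and drugs out. In culture, brain endothelial cells are known to lose part of this barrier programme, and puromycin is used because endothelial cells with strong efflux survive it better than most contaminating cells.

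Each library carries a code, BBB with a number, read here as a preparation. BBB027 to BBB032 gave both a brainstem and a cortex library, and BBB035 and BBB036 gave cortex only. Brainstem replicates 1 to 6 and cortex replicates 1 to 6 follow the codes BBB027 to BBB032 in order. The sources do not say whether a code is an animal. The main test compares libraries within a preparation, so its p-values measure how the brainstem-cortex difference varies over the 6 shared preparations. BBB035 and BBB036 have no brainstem library to be set against and do not enter that difference directly. The cortical libraries are numbered in the labels in a series of their own, and the other structures in a second series. What the series mark is not given, and any difference between them cannot be told apart from the difference between brainstem and cortex. The files name genes by Ensembl identifiers only, and 0 of them could be given a symbol. Endothelial, glial, neuronal and mural markers, junction genes and transporters were therefore not analysed here, and the labelled cell type was not checked against its markers.

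Brainstem libraries were the shallower of the pair in 5 of 6 preparations, and the number of expressed genes depended on the threshold. The total estimated count was 14166654 to 20135358 per library in brainstem (median 16617096) and 15513781 to 23138726 in cortex (median 19777693). At least 1 FPKM was reached by 11115 ± 109 genes in brainstem (SD, n = 6) and 11136 ± 84.2 in cortex (SD, n = 8). Within preparations, the number in brainstem minus that in cortex was -38.7 on average (SD 97.3, -164 to 62), was positive in 3 of 6, and did not differ beyond the spread (two-sided exact paired permutation p = 0.344, where 0.03125 is the smallest possible). At 0.1 FPKM the difference was -189 (SD 141), negative in 6 of 6 preparations (exact paired permutation p = 0.03125), and the part of depth in it was not tested. The 10 most abundant genes took 13.3 ± 1.74% of the counts in brainstem and 13.1 ± 1.52% in cortex (SD, n = 6 and 8). The within-preparation difference was 0.0427 percentage points, with brainstem higher in 2 of 6 (exact paired permutation p = 0.969), and it was -0.574 without BBB031. At 1 FPKM in at least 50% of a structure's libraries, 10975 genes were expressed in both, 233 in cortex only and 214 in brainstem only. These counts mark the crossing of a threshold and not absence from a structure. At least 1 FPKM in every brainstem library and under 0.1 FPKM in every cortex library was found for 0 genes, and the reverse for 1.

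A total of 698 genes differed between brainstem and cortex brain ECs, of which 254 were higher and 444 were lower in brainstem. Calls required a change of 1.5-fold or more and an adjusted p no larger than 0.05 (edgeR quasi-likelihood test with the preparation as a block, Benjamini-Hochberg adjustment). Of all genes tested, 5.94% were called, 2.16% higher and 3.78% lower. The differences were modest in size. The median fold was 1.81 among the higher genes and 1.85 among the lower genes. A fold of at least 2 was reached by 87 higher and 137 lower genes, and a fold of at least 4 by 17 and 10. The gene in the middle of all 11751 moved by -0.0035 on the log2 scale, and 49.2% of genes had a positive change.

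**Figure D1:**
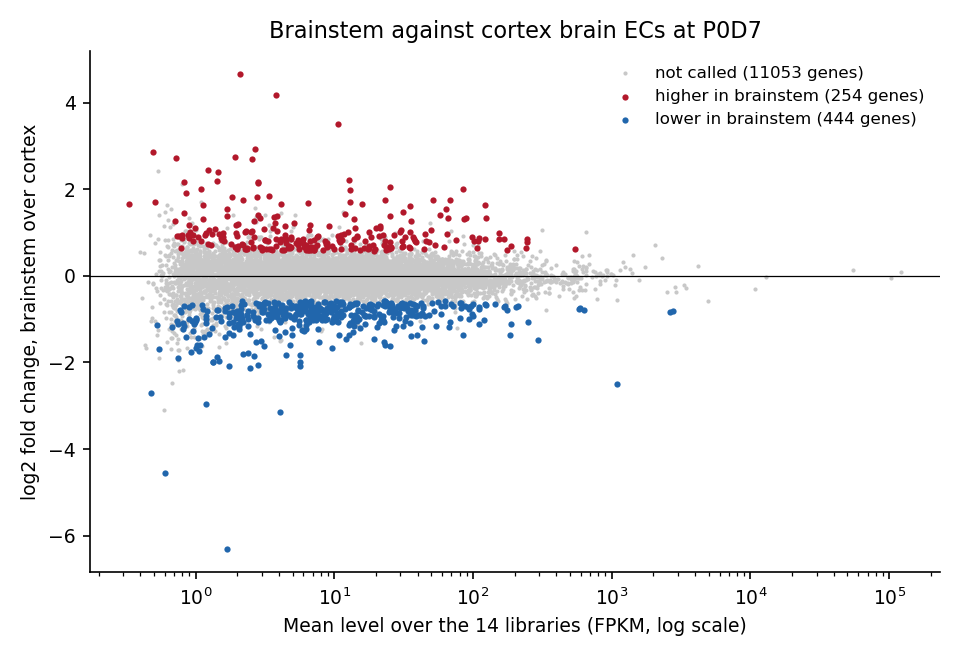
Each point is 1 of the 11751 genes tested, with its mean level over the 14 libraries (FPKM, log scale) on the horizontal axis and its fitted log2 fold change of brainstem over cortex on the vertical axis. Red points are the 254 genes called higher and blue points the 444 called lower in brainstem, and most lie within 2-fold of the line at 0.

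This count rested on comparing libraries within a preparation. Without the block, edgeR called 15 genes (0.128%), 6 higher and 9 lower, all of which were also called with it. DESeq2, the study's tool, called 90 genes without the block and 838 with it. An unadjusted p under 0.05 was found for 3772 genes with the block (32.1% of those tested) and for 1242 without it. In the 12 libraries of the 6 shared preparations, the preparation took 70.0% of the sum of squares of log2 CPM (counts scaled to library size), the structure 14.8% and the remainder 15.2%. Over genes, the median SD of the within-preparation difference was 0.252 on the log2 scale, and 0.428 is the value expected for unrelated libraries.

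Every brainstem library lay apart from its cortex partner in the same sense. On the first principal component of log2 CPM (39.5% of the variance), the brainstem library was lower than the cortex library in 6 of 6 preparations. The component nevertheless ran from -42.7 to 36.2 over brainstem and from -36.5 to 49.6 over cortex, so the structures overlapped widely. Of the 254 higher genes, 232 were higher in all 6 preparations, and of the 444 lower genes, 419 were lower in all 6. Both counts follow largely from the calls, which rest on the same within-preparation differences, and they carry no test. The same direction in all 6 was found for 2938 of the 11751 genes tested. With the pairing put aside, 45 genes (0.383% of those tested) had every brainstem library above or below every cortex library in FPKM, 16 above and 29 below, and 29 of the 45 were called.

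The preparations differed in how far brainstem stood from cortex. BBB031 had the widest difference, with 2092 genes higher and 1925 lower in brainstem by at least 1.5-fold between its single pair of libraries. BBB032 had the narrowest, with 385 and 338. BBB029 had 997 and 1479, BBB030 had 677 and 863, BBB027 had 554 and 813, and BBB028 had 450 and 941. More genes were lower than higher in BBB027 to BBB030 and fewer in BBB031 and BBB032.

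**Figure D2:**
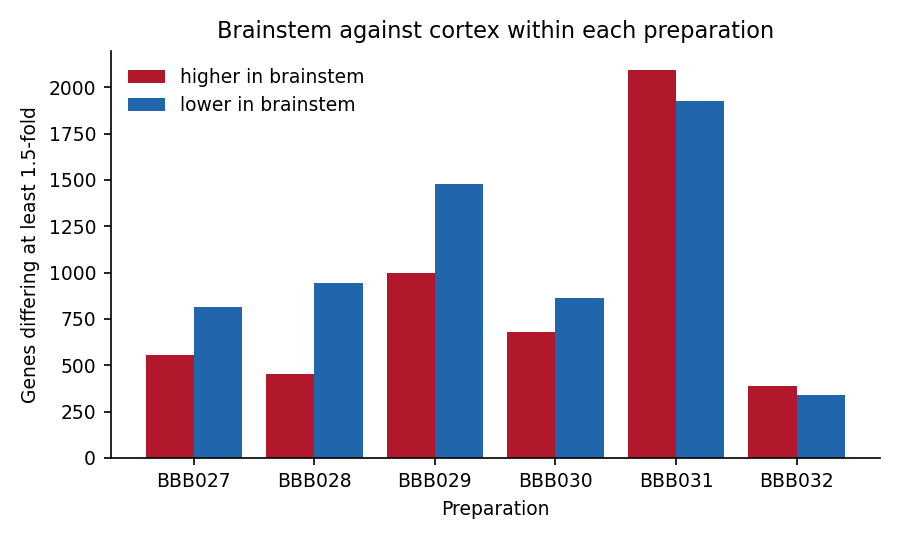
Bars count the genes, of 11751, that differed at least 1.5-fold between the brainstem and the cortex library of each of the 6 preparations, red for higher and blue for lower in brainstem. BBB031 has the tallest bars (2092 and 1925 genes) and BBB032 the shortest (385 and 338), and each pair of bars rests on 1 library per structure.

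The pair of BBB031 also stood apart in how alike its libraries were. The deviations from the group means correlated at 0.183 between its brainstem and cortex libraries, across genes, where the other 5 preparations gave 0.545 to 0.827. Its brainstem library correlated better with the cortex library of BBB028, so the pairing is least certain for BBB031. When the brainstem library of BBB031 was left out, 590 genes were called, 207 higher and 383 lower, and without its cortex library 599, 217 and 382. The count depended more on other libraries. It was 241 and 242 without the brainstem or the cortex library of BBB029, 351 and 335 without those of BBB030, and 406 and 394 without those of BBB028. It was 760 and 753 without those of BBB032, 564 and 561 without those of BBB027, and 697 and 698 without the cortex libraries of BBB035 and BBB036.

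The called genes made up a small share of the RNA, and the share shifted between the structures in both directions. The 254 higher genes held 1.90 ± 0.477% of the counts in brainstem and 1.11 ± 0.471% in cortex (SD, n = 6 and 8). The 444 lower genes held 1.77 ± 0.721% and 3.07 ± 0.726%. These shares follow from the calls and carry no test. Brainstem of BBB032 stood near cortex on both, with 1.07% in the higher and 3.21% in the lower genes, and cortex of BBB035 stood near brainstem, with 1.94% and 1.85%. In bulk RNA, fewer cells of a type and less RNA per cell cannot be told apart.

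The called genes were spread over all levels of expression. With the genes cut into 4 equal bins by mean FPKM, in the lowest bin 3.68% were higher and 5.24% lower in brainstem, against 1.70% and 3.10% in the highest bin. Called genes also varied more within a structure than other genes did. The median SD of log2 CPM over the 8 cortex libraries was 0.742 for the higher genes, 0.706 for the lower genes and 0.30 for all genes tested.

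The genes lower in brainstem held more short genes than the genes higher in it did. Gene length was taken as the length implied by a gene's count and its FPKM. Among the 704 genes under 500 bases, 90 were called lower (12.8%), against 3.20% of the 11047 longer genes, and 1.18% of the higher genes were short, against 20.3% of the lower genes and 5.99% of all tested. The median log2 change was -0.27 for the short genes and 0.00 for the longer ones, and 70.3% of the short genes had a negative change. Their summed share of the counts did not separate the structures, at 8.57% to 12.2% in brainstem and 8.79% to 11.8% in cortex, and was lower in brainstem in 4 of 6 preparations. When the genes of 500 bases or more were fitted alone, as decided once the data had been seen, 584 genes were called, 239 higher and 345 lower.

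**Figure D3:**
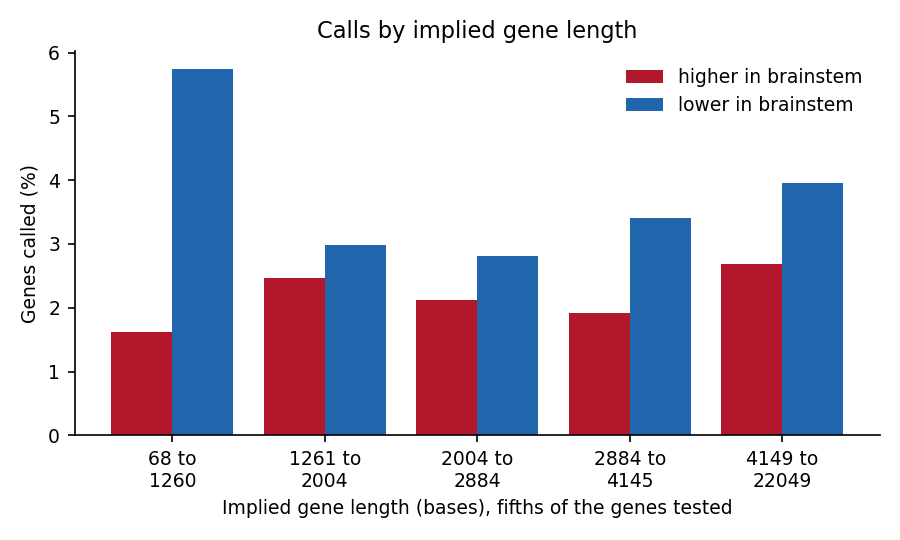
Bars give the percentage of genes called higher (red) and lower (blue) in brainstem in 5 equal bins of the 11751 genes by implied length in bases. In the shortest bin 1.62% were higher and 5.74% lower, and in the longest 2.68% and 3.96%.

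The short genes were on average lower than cortex in the other structures too. In a fit of all 30 P0D7 libraries, their median log2 change from cortex was -0.24 in brainstem, -0.16 in hippocampus, -0.16 in striatum and -0.33 in cerebellum. These 4 values share the cortex libraries. Set against structures of their own numbering series, brainstem short genes had a median log2 change of -0.08 from hippocampus, -0.07 from striatum and 0.07 from cerebellum.

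Of the named identifiers, ENSMFAG00000024344 and ENSMFAG00000001645 were the most increased in brainstem, and ENSMFAG00000005898 and ENSMFAG00000014981 the most decreased. They were taken by size of change from the 442 called genes, 148 higher and 294 lower, that reached 5 FPKM on average in the higher structure and had the same direction in all 6 preparations. The files do not say what these genes do.

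ENSMFAG00000024344 was at 8.64, 3.14, 1.06, 36.5, 1.56 and 0.592 FPKM in brainstem replicates 1 to 6. In cortex replicates 1 to 8 it was at 0.449, 0.295, 0.175, 0.63, 0, 0.275, 0 and 0.120 FPKM, where the 2 libraries at 0 allow up to 0.217 and 0.246 FPKM (3 counts, counting error only). It was barely detected in cortex, with 0 to 9 counts per library, and the structures overlapped only through brainstem of BBB032, which lay below cortex of BBB030. Its log2 fold change was 4.19 (SE 0.55, adjusted p = 0.00926 by edgeR with the block), and 5.10 without the block (adjusted p = 0.0545), where it was not called. Leaving out BBB030 lowered the log2 fold change to 3.33 without its brainstem library and to 3.34 without its cortex library, both still called (edgeR adjusted p = 0.0369 and 0.0368). The rise within a preparation ran from 1.74-fold in BBB032 to 47.6-fold in BBB030.

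ENSMFAG00000001645 was at 8.85, 2.89, 19.9, 93.1, 1.72 and 10.0 FPKM in brainstem replicates 1 to 6. In cortex replicates 1 to 8 it was at 0.601, 0.967, 0.811, 3.27, 0.274, 2.35, 0.745 and 2.37 FPKM. BBB030 was highest in both structures and BBB031 lowest in both, and the lowest brainstem libraries lay within the cortex range. Its log2 fold change was 3.51 (SE 0.39, adjusted p = 0.00855 by edgeR with the block), with 4.03-fold to 25.6-fold within preparations. Without the block the adjusted p by edgeR was 0.0811 and it was not called. Its implied length ran from 912 to 1470 bases over the libraries, so its FPKM and its counts do not scale alike in all of them.

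ENSMFAG00000005898 was at 0.920, 0.535, 0, 0.376, 0.490 and 1.96 FPKM in brainstem replicates 1 to 6, and the library at 0 allows up to 1.36 FPKM. In cortex replicates 1 to 8 it was at 9.81, 11.6, 5.21, 5.38, 5.60, 4.91, 6.35 and 3.56 FPKM. No brainstem library reached the lowest cortex library. The level rests on few reads, with 10 counts over the 6 brainstem and 134 over the 8 cortex libraries, and on an implied length of 132 bases. Its log2 fold change was -3.15 (SE 0.49, adjusted p = 0.0124 by edgeR with the block), and it was also called without the block (adjusted p = 0.0302). It was -3.86 without either library of BBB032.

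ENSMFAG00000014981 was an abundant RNA, 19th by level among the genes tested in cortex and 113th in brainstem, with an implied length of 296 bases. It was at 160, 128, 190, 551, 163 and 1288 FPKM in brainstem replicates 1 to 6. In cortex replicates 1 to 8 it was at 480, 1301, 1661, 2056, 2419, 2863, 337 and 1813 FPKM. The structures overlapped through brainstem of BBB030 and BBB032 and cortex of BBB027 and BBB035. Its log2 fold change was -2.49 (SE 0.35, adjusted p = 0.0110 by edgeR with the block), with a fall of 2.25-fold to 13.8-fold within preparations. Without the block it was -1.98 (adjusted p = 0.277 by edgeR), and the gene was not called.

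**Figure D4:**
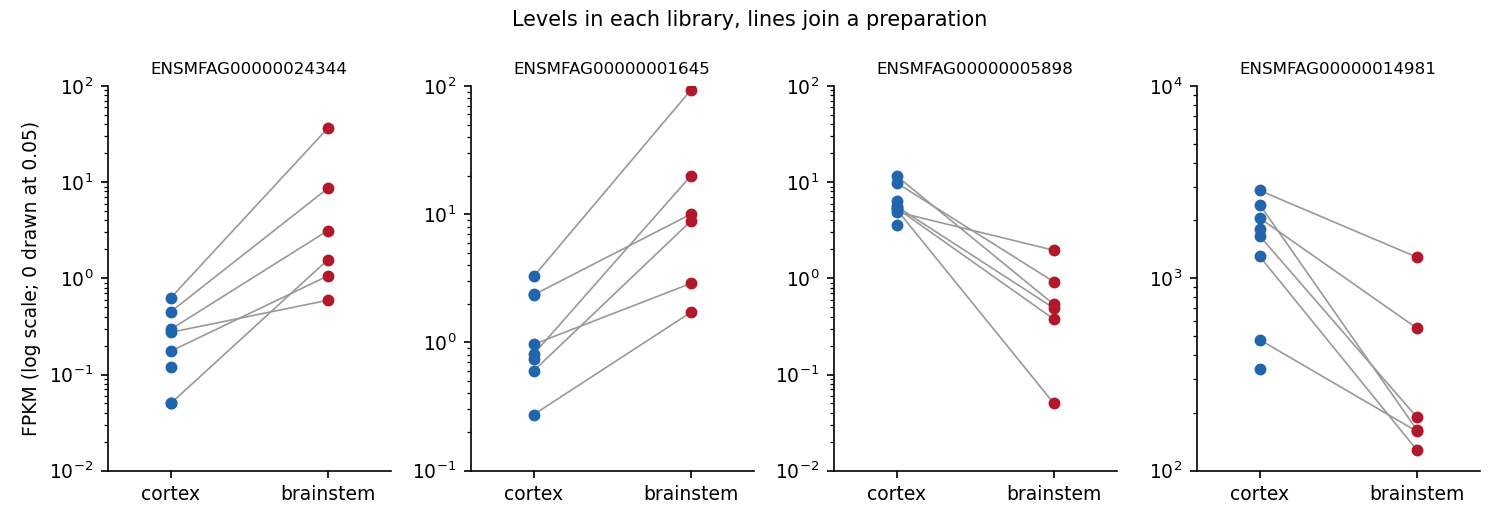
Levels (FPKM, log scale, a value of 0 drawn at 0.05) of the 4 named identifiers, with 1 point per library, 8 of cortex in blue and 6 of brainstem in red, and grey lines joining the libraries of a preparation. All 6 lines rise in the 2 panels on the left and fall in the 2 on the right, and only ENSMFAG00000005898 shows no overlap between the structures.

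The levels of the 4 genes in hippocampus and striatum lay on the brainstem side of cortex on average. ENSMFAG00000024344 was at 5.84 ± 5.50 FPKM in hippocampus (SD, n = 7) and 2.28 ± 2.97 in striatum (n = 7), and was listed at 0 in both cerebellum libraries. ENSMFAG00000001645 was at 12.0 ± 16.8 FPKM in hippocampus, 5.73 ± 3.17 in striatum and 0.456 and 3.36 in the cerebellum libraries. The genes that were lower in brainstem were below cortex in both structures on average. ENSMFAG00000005898 was at 1.54 ± 0.724 FPKM in hippocampus and 1.42 ± 0.984 in striatum, and ENSMFAG00000014981 at 674 ± 480 and 487 ± 331. In the fit of 30 libraries with the block, none of the 4 was called between brainstem and hippocampus (edgeR adjusted p = 0.626, 0.634, 0.208 and 0.103 in the order above) or between brainstem and striatum (adjusted p = 1.000 for each). The log2 differences ran from -1.02 to 0.67, with SEs of 0.43 to 0.62. The difference of ENSMFAG00000014981 from hippocampus, -1.02 with an SE of 0.43, had an unadjusted edgeR p of 0.0256. Against the 2 cerebellum libraries, ENSMFAG00000024344 was called (edgeR adjusted p = 0.0307), with no fold given since both were listed at 0, and the other 3 were not.

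The levels of these genes over the culture stages of cortex are given without a test. The paper reports that the P0D0 fraction also contains RNA from pericytes, glia, neurons and blood cells. A P0D0 level is therefore not that of endothelial cells alone. From P0D0 (n = 8) to P0D7 (n = 8) and P1D7 (n = 6), ENSMFAG00000014981 was at 66.6 ± 46.4, 1616 ± 883 and 154 ± 57.9 FPKM. ENSMFAG00000005898 was at 50.2 ± 33.0, 6.55 ± 2.72 and 7.23 ± 1.55 FPKM. ENSMFAG00000001645 was at 3.87 ± 2.77, 1.42 ± 1.08 and 0.0372 ± 0.0240 FPKM. The level in brainstem at P0D7 thus lay above all 3 cortical stages for the last gene on average and below all 3 for ENSMFAG00000005898. ENSMFAG00000024344 was near 0 at all cortical stages, at 0.0611 ± 0.128, 0.242 ± 0.217 and 0.149 ± 0.150 FPKM.

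As a group, the genes higher in brainstem stood at higher levels in freshly isolated cortical microvessels than in cultured cortex. The part of the other cell types at P0D0 in these levels was not tested. Their median level was 9.71 FPKM at P0D0, 4.12 in cortex at P0D7, 3.40 at P1D7 and 7.46 in brainstem at P0D7. The genes lower in brainstem had a median of 2.94 FPKM at P0D0, 8.40 in cortex at P0D7, 3.64 at P1D7 and 4.38 in brainstem at P0D7. The P0D7 medians of cortex and brainstem come from the libraries that made the calls, so their distance from P0D0 is shaped by the selection. The comparison of P1D7 with P0D0 uses none of the 14 libraries, but it is not independent of them. P1D7 cells were cortical P0D7 cells plated again, and every P1D7 code also has a cortex P0D7 library. Of the P0D0 codes, only BBB037 and BBB038 have none. There, the median log2 change was -1.30 for the higher genes, 0.57 for the lower genes and 0.02 for all genes tested. At least 2-fold lower levels at P1D7 than at P0D0 were found for 140 of the 254 higher genes (55.1%), 89 of the 444 lower genes (20.0%) and 19.8% of all genes. At least 2-fold higher levels were found for 33 (13.0%), 174 (39.2%) and 18.1%.

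The balance of both groups in a library, the mean log2 CPM of the higher genes minus that of the lower genes, put brainstem between fresh cortex and cortex at P0D7. This place was not particular to brainstem, since the means of striatum (0.80, n = 7), cerebellum (0.46, n = 2) and hippocampus (0.13, n = 7) lay there too. The balance was 2.11 ± 0.206 at P0D0 (SD, n = 8), 1.38 ± 0.965 in brainstem (n = 6), -0.50 ± 0.901 in cortex at P0D7 (n = 8) and 0.25 ± 0.295 at P1D7 (n = 6). The brainstem and cortex P0D7 values follow from the calls, and the selection also shapes the distance of the other groups from cortex at P0D7. The P0D0 value includes RNA of the other cell types named above. The order of the preparations was alike in some structures and not in others. BBB032 was the lowest library in brainstem, at -0.52, in cortex at P0D7, at -1.58, and in hippocampus, at -1.18. In striatum it was at -0.16, with BBB036 lower, at -0.69. BBB035 was highest in cortex, at 0.87, and in hippocampus, at 1.18, but at 0.47 in striatum, where BBB028 was highest, at 2.21. At P0D0 BBB031 was lowest, at 1.67, and BBB032 was at 2.22.

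**Figure D5:**
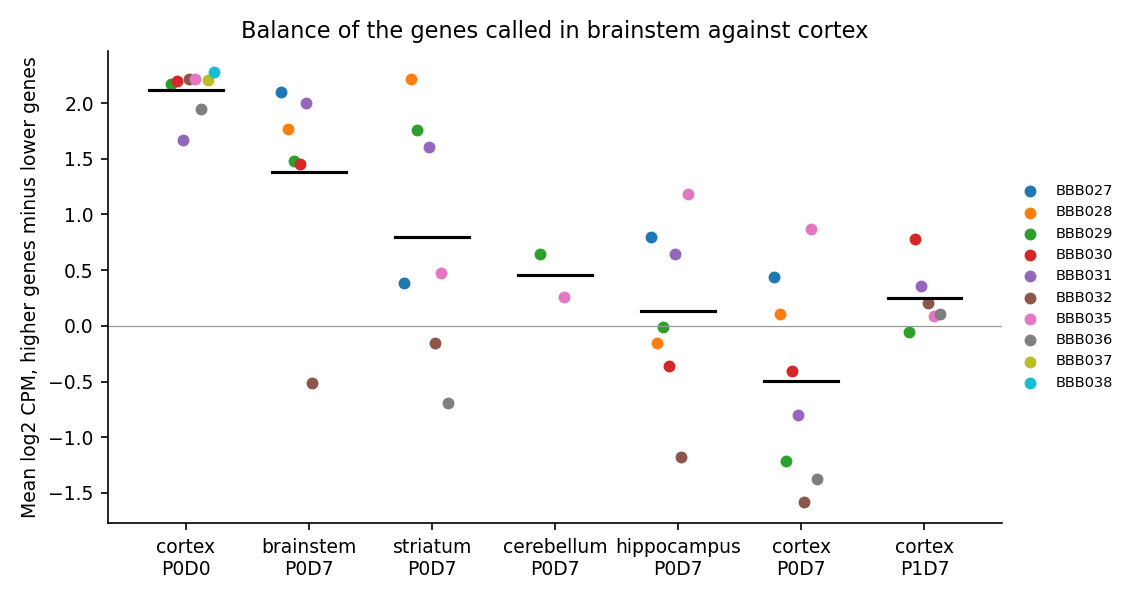
Each point is a library, coloured by preparation, and gives the mean log2 CPM of the 254 genes higher in brainstem minus that of the 444 lower genes, by structure and culture stage, with a black line at the group mean. Means run from 2.11 in P0D0 cortex to -0.50 in cortex at P0D7, with brainstem at 1.38 and every other group also between them. Libraries within a P0D7 structure spread widely, apart from cerebellum with its 2 libraries. P0D0 cortex also contains RNA of cells other than endothelial cells.

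The log2 fold changes over all genes tested were also set beside the variation among libraries of a single other structure. The first principal component of the 7 hippocampus libraries alone held 36.2% of their variance, and its gene loadings correlated with the log2 fold change of brainstem against cortex at an absolute r of 0.55 across 11751 genes. In the 7 striatum libraries alone it held 45.4%, with an absolute r of 0.54. These libraries are not part of the contrast but share preparations with it, and genes are not independent replicates, so the values are descriptions. How far brainstem differs from cortex along a gradient that also runs between libraries of a structure was not tested.

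Brainstem differed from hippocampus in 503 genes, from cerebellum in 754 and from striatum in 0 by edgeR, and the difference between these counts was not tested. In the fit of 30 libraries with the block, 503 of 11751 genes were called between brainstem and hippocampus (4.28%), 273 higher and 230 lower in brainstem, and DESeq2 called 708. Between brainstem and striatum edgeR called 0 genes (0%), with 447 at an unadjusted p under 0.05, and DESeq2 called 3, whose identifiers have no symbol. Between brainstem and cerebellum, which rests on 2 cerebellum libraries, 754 genes were called (6.42%), 463 higher and 291 lower in brainstem. The cerebellum libraries are of BBB029 and BBB035, and only BBB029 also gave a brainstem library. BBB027 to BBB032 all gave a hippocampus library, and striatum lacks BBB030. The counts for these structures thus rest on unequal numbers of pairs within a preparation. Of the 254 genes higher than cortex, 102 were also called higher than hippocampus, and of the 444 lower genes, 73 were called against hippocampus, 72 of them lower. These comparisons share the brainstem libraries with the main one, so the shared genes are not independent of it.

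Set side by side against the same 8 cortex libraries, the medians of the called genes in striatum lay nearer to those in brainstem than the medians in hippocampus did. The median log2 change of the 254 higher genes in the fit of 30 libraries was 0.81 in brainstem, 0.57 in striatum, 0.19 in hippocampus and -0.07 in cerebellum. For the 444 lower genes it was -0.80, -0.68, -0.23 and -0.57. The 4 structures share the cortex libraries and their numbering series, and the order is a description. In that fit 380 genes differed between brainstem and cortex, 175 higher and 205 lower.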

How the data were processed

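The authors deposited unnormalized estimated counts (read pairs assigned to each gene) together with FPKM values for the same Ensembl identifiers. Per the methods, directional, ribosomal-RNA-depleted libraries were sequenced in pairs of 75 cycles, ribosomal, low-quality and short reads (under 25 nt) were removed, and the rest were aligned with OSA (Omicsoft) to the cynomolgus genome of Washington University, and ArrayStudio then counted pairs over the Ensembl model. Over all 44 libraries and 28623 identifiers, 0.344% of the count values lay more than 0.01 from a whole number. From these files, counts were rounded, and TMM normalization with a quasi-likelihood F test (trended dispersion, no tagwise step) was run in edgeR 4.0.16 and R 4.3.3, with the preparation code as a block. Alternatives used DESeq2 1.42.0 and limma 3.58.1 (on log2 of FPKM plus 0.1 or 1, and voom). Log2 CPM took a prior count of 2, also for folds within a preparation. The SE of a log2 fold change is not given by edgeR. It was derived as the absolute change divided by the square root of the F statistic.

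The code was taken to pair libraries because deviations from the group means correlated over 0.1 in each of the 6 pairs (mean 0.617, lowest 0.183, against -0.125 for 30 pairs of different codes). Taking deviations from group means by itself pushes the value for different codes below 0. The brainstem library correlated best with the cortex library of its own code in 5 of 6 preparations, and that of BBB031 with cortex of BBB028. No 2 libraries of a structure agreed within sampling noise (mean chi-square per gene at least 21.4 over 43 pairs). Read pairs carry no molecular identifiers, so limits at 0 counts cover counting error only. The 2 identifiers with the largest rise and the 2 with the largest fall were printed. They were drawn from called genes whose mean in the higher structure reached 5 FPKM and whose direction was shared by all 6 preparations. Of the identifiers, 0 matched the reference table, in which 0 of 40596 genes carry an Ensembl identifier, so the gene lists and markers were not used. Members, lists and tests were chosen with earlier results of these data known. The edgeR test with the block was checked on simulated counts, drawn independently for each gene from the dispersion trend of these data. Such counts lack the variation that many genes share between libraries beyond the preparation, so the check does not cover it. Dispersion and pairing in the fit of 30 libraries rest on all 5 structures.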

Additional observations from a re-analysis of the deposited data

Results flagged for a closer look

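In 20 sets of library values examined, 4 held a library far from the rest of its group by Dixon's test. The rate of about 1 in 20 by chance holds for normally distributed values. The FPKM sets were taken without a log, where a skewed gene passes more often, so an excess over chance cannot be read from this count. All 4 were the highest of the 6 brainstem libraries. BBB032 held 3.21% of its counts in the genes lower in brainstem, with 1.77% in the next library, and ENSMFAG00000014981 at 1288 FPKM, with 551 in the next. BBB030 held ENSMFAG00000024344 at 36.5 FPKM, with 8.64 in the next, and ENSMFAG00000001645 at 93.1 FPKM, with 19.9 in the next.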

How the results depend on the processing

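The 698 called genes (254 higher, 444 lower) depended most on the replicate block, without which edgeR called 15 (6 and 9) and DESeq2 90 (46 and 44). Without a fold threshold 1507 were called (703 and 804), and at 2-fold 224 (87 and 137). The fit of all 30 P0D7 libraries called 380, 205 of them lower. Among genes at 10 FPKM or more on average, a choice made once the data had been seen and one that tests fewer genes, 283 were called (101 and 182). With 1 library left out the count ran from 241 to 760, 83 to 288 higher and 157 to 472 lower, and it was lowest without either library of BBB029. Counts stayed within 1.5 times the value given with DESeq2 and the block (838, of which 684 were shared with edgeR), other size factors (697 and 713), no filter (837), a stricter filter (584), the 12 paired libraries (707), limma on FPKM (643 and 524) and voom with the preparation as a random effect (662). At 0.1 FPKM the brainstem library had fewer genes than its cortex partner in 6 of 6 preparations (-189 on average, exact paired permutation p = 0.03125), and it was also the shallower in 5. In BBB030, where brainstem was the deeper, it had 13571 genes against 13849 in cortex. The part of depth was not tested. The difference in the share of the 10 most abundant genes ran from -0.574 percentage points without BBB031, where it turned negative, to 0.348 without BBB030. The 4 named genes kept their direction under every alternative run on them, and 3 of them lost the call without the block in edgeR. On log2(FPKM + 1), which lowers the change of weak genes, ENSMFAG00000024344 was at 1.90, ENSMFAG00000001645 at 2.40 and ENSMFAG00000005898 at -2.25. Depth limits the weakest, where 3 counts exceed the level in some libraries.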
